A study of Mus musculus with 16 samples.

Results

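Expression of 8 genes of the LIF receptor and Stat3 pathway (Lifr, Il6st, Jak1, Jak2, Stat3, Socs3, Pim1 and Pim3) was followed on 16 Affymetrix Mouse 430A 2.0 arrays of J1 mouse embryonic stem (ES) cells. The genes were represented by every probe set that maps to exactly 1 of these symbols, which gave 22 of the 22690 probe sets on the array. Jak2 and Pim1 had 2 probe sets each and the other genes 3 each. All cells were kept on gelatin with 20% serum and 1000 U/ml LIF, so no group lacked the ligand. In the knockdown arm, cells with knockdown of Tgif1 (Tgif1 KD) and shControl cells had 2 arrays each. Tgif1 OE, Tgif2 OE and a control that overexpresses BirA (BirA control) had 4 arrays each and made up the overexpression arm. The vectors, the number of clones and the origin of the replicates are not given in the labels, so p-values reflect variation among these arrays, which could be technical alone. Each group was compared with its own control, and Tgif1 OE was compared with Tgif2 OE. Arrays have no read depth, and their number limits precision.

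LIF binds the receptor Lifr, which pairs with the shared signalling chain Il6st (gp130). The kinases Jak1 and Jak2 sit on these chains and phosphorylate Stat3, which enters the nucleus and activates genes that keep mouse ES cells self-renewing. Socs3, itself a Stat3 target, binds the receptor and kinase and damps the signal. Pim1 and Pim3 are serine/threonine kinases induced by the pathway. Tgif1 and Tgif2 are homeodomain repressors.

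The targeted genes were examined first, on probe sets whose position relative to the knockdown or transgene sequence is not known here. Tgif1 1422286_a_at had log2 intensities of 7.46 and 7.12 on Tgif1 KD arrays and 10.71 and 10.66 on shControl arrays, a change of -3.39 ± 0.10 (standard error of the limma fit, as after every change; adjusted p = 9.22e-11). The same probe set was lower, not higher, on the arrays labelled Tgif1 OE, with 10.02 to 10.25 against 10.65 to 10.74 on BirA control (-0.58 ± 0.07, adjusted p = 7.91e-05). Tgif2 1434400_at had 9.29 to 9.47 on the arrays labelled Tgif2 OE and 9.17 to 9.35 on BirA control, a change that did not pass the threshold (0.11 ± 0.07, adjusted p = 0.226). Each gene also changed where the other was targeted. Tgif2 was higher on Tgif1 KD (0.81 ± 0.09, adjusted p = 2.21e-05) and lower on Tgif1 OE (-0.45 ± 0.07, 2.52e-04) than on their controls. Tgif1 was lower on Tgif2 OE than on BirA control (-0.42 ± 0.07, 6.02e-04). The data therefore do not show the labelled overexpression at these probe sets, and both groups are called by their labels throughout. ES cell markers were bright in every group: the mean of 8 (Pou5f1, Sox2, Nanog, Zfp42, Utf1, Dppa5a, Tdgf1 and Fgf4) lay between 12.06 and 12.81 log2 on all arrays. These markers also moved with the groups. Against shControl, 2 were called higher (Tdgf1 and Fgf4) and 0 lower on Tgif1 KD (4 and 0 unadjusted), with list means of 12.77 to 12.81 on Tgif1 KD and 12.50 on both shControl arrays. Against BirA control, 4 were called lower (Nanog, Zfp42, Fgf4 and Dppa5a) and 0 higher on Tgif1 OE (6 and 0 unadjusted), with list means of 12.06 to 12.24 on Tgif1 OE, 12.30 to 12.52 on Tgif2 OE and 12.31 to 12.45 on BirA control. On Tgif2 OE against BirA control, 1 was called higher and 0 lower (1 and 1 unadjusted). After quantile normalization 0 were higher and 2 lower there. On Tgif1 OE against Tgif2 OE, 4 were lower and 0 higher (8 and 0 unadjusted), and 0 were called after quantile normalization. The shares of all probe sets called higher and lower were 11.2% and 11.1% on Tgif1 KD and 8.74% and 9.09% on Tgif1 OE. They were 24.9% and 6.18% on Tgif2 OE against BirA control, and 1.93% and 16.7% on Tgif1 OE against Tgif2 OE. The part of these markers in the pathway changes was not tested.

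A probe set was called at an adjusted p under 0.05 in 1 limma fit over the 16 arrays, adjusted over 22626 probe sets. Against shControl, Tgif1 KD arrays had 3 of the 22 pathway probe sets called higher (both probe sets of Jak2 and 1 of Il6st) and 0 called lower by limma. At an unadjusted p under 0.05 they had 10 higher and 1 lower. Of all probe sets, 22.3% were called in this comparison, 11.2% higher and 11.1% lower. Against BirA control, the arrays labelled Tgif1 OE had 1 called higher (Jak1) and 1 lower (Il6st), where 17.8% of all probe sets were called, 8.74% higher and 9.09% lower. The arrays labelled Tgif2 OE had 4 called higher (all 3 probe sets of Jak1 and 1 of Il6st) and 0 lower (5 and 0 unadjusted), where 31.1% of all were called, 24.9% higher and 6.18% lower. On Tgif1 OE against Tgif2 OE, 5 were called lower and 0 higher (10 and 0 unadjusted), where 18.6% of all were called, 16.7% lower and 1.93% higher. In these 4 comparisons the share of pathway probe sets called was below the background (13.64%, 9.09%, 18.18% and 22.73% in that order), except in the last. The comparisons with BirA control share those 4 arrays.

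In the overexpression arm, pathway values differed between array pairs: in each of its 3 groups replicates 3 and 4 stood apart from replicates 1 and 2, a split that the labels do not name. Of the 22 probe sets, 9 were lower and 3 higher on replicates 3 and 4, with no overlap, in all 3 groups, where 12.4% of all probe sets were lower and 12.6% higher in this way. With the replicate number as a block, 6 pathway probe sets were called for Tgif1 OE against BirA control (25.2% of all probe sets), 7 for Tgif2 OE against BirA control (39.6%) and 9 for Tgif1 OE against Tgif2 OE (28.2%). Fitted on replicates 1 and 2 of the overexpression arm alone, the 3 counts were 4, 6 and 6 (22.9%, 31.7% and 21.6% of all), and on replicates 3 and 4 alone 4, 6 and 4 (20.2%, 31.2% and 16.3%). With each pair averaged to 1 value, an alternative chosen after seeing the data, they were 0, 3 (all of Jak1) and 0 (4.76%, 10.1% and 0.734% of all), so no pathway call gained with the block in this arm passed that way. The arrays labelled Tgif2 OE also lay higher as a whole: their column medians averaged 0.08 log2 above the other 12, and the median change of all probe sets was 0.11 against BirA control. Pathway changes that turn on these arrays are therefore also given relative to that median. The changes of other genes on Tgif2 OE against BirA control are printed as fitted, and each is lower by 0.11 relative to it.

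**Figure D1:**
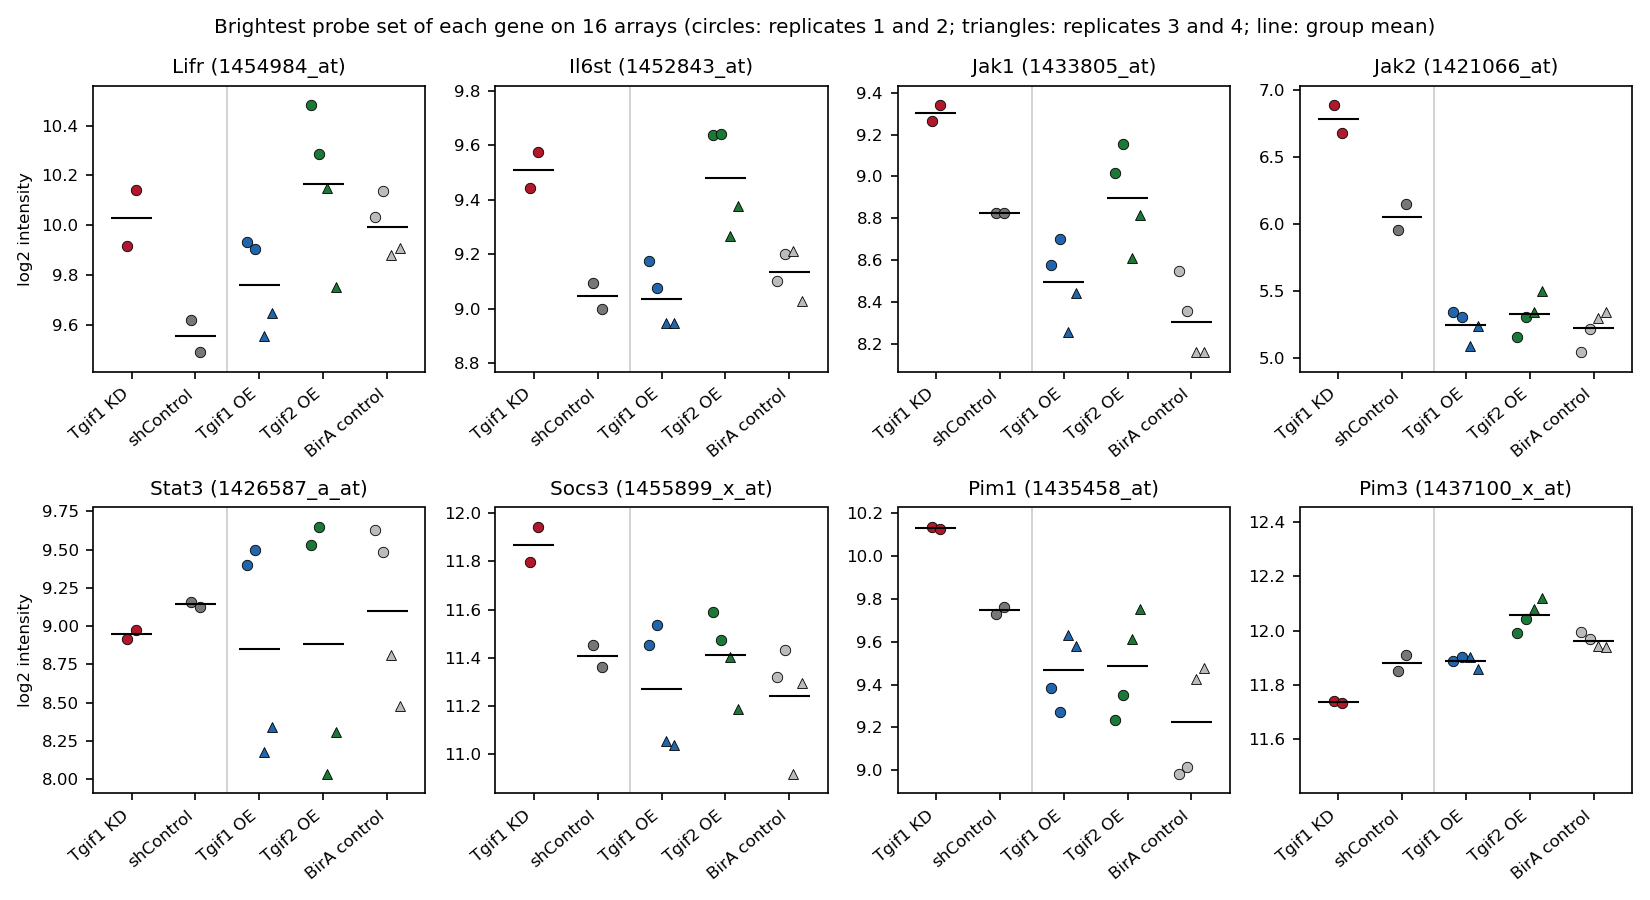
Log2 intensity (vertical axis) of the brightest probe set of each gene on the 16 arrays by group, with a line at the group mean; circles are replicates 1 and 2 and triangles replicates 3 and 4 of the overexpression arm (all knockdown-arm arrays are circles), and each panel has its own scale. Jak2 is highest on the Tgif1 KD arrays (6.88 and 6.68), Jak1 is higher on every Tgif2 OE array than on any BirA control array, and Stat3 splits by array pair within each overexpression-arm group.

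Of the receptor chains, Il6st passed the threshold in all 4 comparisons, through 2 of its 3 probe sets, and Lifr in 1. Il6st 1452843_at, the brightest of its 3, had 9.44 and 9.58 log2 on Tgif1 KD arrays and 9.09 and 9.00 on shControl arrays. Both knockdown arrays lay above both control arrays, and the change was 0.46 ± 0.13 (1.38-fold, adjusted p = 0.0148). Leaving out Tgif1 KD replicate 2 ended the call (adjusted p = 0.115), as did leaving out shControl replicate 2 (0.106). Il6st 1460295_s_at gave 0.51 ± 0.20 and did not pass (0.0887), and the dim 1421239_at gave 0.01 ± 0.15 (0.973). Whole-culture RNA cannot tell apart fewer cells of a type and less RNA per cell, for this and every later result.

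In the overexpression arm Il6st 1452843_at had 9.64, 9.64, 9.27 and 9.38 on the arrays labelled Tgif2 OE, against 9.10, 9.20, 9.21 and 9.03 on BirA control. All 4 Tgif2 OE values lay above all 4 control values (0.35 ± 0.09, adjusted p = 0.00874), by 0.24 relative to the median of all probe sets. That call was lost after quantile normalization (0.23, adjusted p = 0.0656) and on replicates 3 and 4 alone (0.20, 0.103). The arrays labelled Tgif1 OE had 9.18, 9.07, 8.95 and 8.95, all below every Tgif2 OE value (-0.44 ± 0.09, adjusted p = 0.0042, and -0.34 relative to the median) and overlapping BirA control (-0.10 ± 0.09, 0.53). Il6st 1421239_at on Tgif2 OE against BirA control (0.23 ± 0.10, 0.111, and 0.12 relative to the median) passed with the replicate block (0.0327).

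Il6st 1460295_s_at, whose suffix marks probes shared between transcripts, had 5.94, 5.17, 5.72 and 6.01 on the arrays labelled Tgif1 OE. Tgif2 OE had 6.34, 6.39, 6.30 and 6.33, and BirA control 6.21, 6.38, 6.31 and 5.98. The Tgif1 OE values overlapped BirA control at 1 array of each and lay below every Tgif2 OE array. The change was -0.51 ± 0.14 against BirA control (adjusted p = 0.0228) and -0.63 ± 0.14 against Tgif2 OE (0.00908, and -0.52 relative to the median). Leaving out replicate 2 (0.0689) or replicate 3 (0.0558) of BirA control ended the call against that control, as did using replicates 3 and 4 alone (-0.28, 0.185).

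Lifr did not pass the threshold against either control. Its brightest probe set, 1454984_at, had 9.92 and 10.14 on Tgif1 KD arrays and 9.62 and 9.49 on shControl arrays, which do not overlap (0.47 ± 0.19, adjusted p = 0.089). The dimmer 1450207_at and 1425107_a_at gave 0.30 ± 0.23 (0.411) and 0.64 ± 0.24 (0.0695). On the arrays labelled Tgif1 OE, 1454984_at had 9.93, 9.91, 9.56 and 9.65, against 10.48, 10.29, 10.15 and 9.75 on Tgif2 OE and 10.03, 10.14, 9.88 and 9.91 on BirA control. The ranges overlapped throughout. Tgif1 OE was called lower than Tgif2 OE (-0.41 ± 0.13, adjusted p = 0.0459), but relative to the median of all probe sets this was -0.30. The call was lost in 11 of 19 alternatives. Among them were quantile normalization (-0.27, 0.236), the compared groups alone (0.108) and replicates 3 and 4 alone (-0.35, 0.0965). With the replicate block, Lifr 1425107_a_at passed on Tgif1 OE against BirA control (-0.49, 0.0197) and against Tgif2 OE (-0.50, 0.0191, and -0.39 relative to the median), and 1450207_at against Tgif2 OE (-0.35, 0.0325, and -0.24 relative to the median).

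The kinases gave the largest pathway changes of the knockdown arm and of the Tgif2 OE arrays. Jak2 1421065_at had 5.91 and 5.89 on Tgif1 KD arrays and 4.99 and 4.79 on shControl arrays. The change of 1.01 ± 0.14 (2.01-fold, adjusted p = 1.31e-04) was the largest of the 22 probe sets in that comparison. Jak2 1421066_at had 6.88 and 6.68 on Tgif1 KD arrays and 5.95 and 6.15 on shControl arrays (0.73 ± 0.13, 1.66-fold, 7.62e-04). Neither probe set's groups overlapped. Neither call was lost in any alternative on this comparison that held the probe set, including each array left out in turn. The alternative without the dimmest 33.3% of probe sets did not hold 1421065_at, nor did that with 1 probe set per gene. In the overexpression arm both probe sets overlapped between all groups: 1421066_at had 5.09 to 5.35 on Tgif1 OE, 5.16 to 5.50 on Tgif2 OE and 5.04 to 5.34 on BirA control.

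The mean Jak2 signal was low, at percentile 39.8 of all probe sets for 1421066_at and 27.4 for 1421065_at, and detection calls were not used. The order of Jak2 levels was Tgif1 KD, then shControl, then the overexpression-arm groups, which did not differ beyond their spread. The 2 controls themselves differed, with shControl above BirA control by 0.82 and 0.51 without overlap, so changes were taken within an arm. The change on Tgif1 KD minus that on Tgif1 OE was called for both Jak2 probe sets (1.01 ± 0.17, adjusted p = 6.24e-04, and 0.71 ± 0.16, 0.00385). Because Jak2 carried the largest knockdown change, its promoter is shown, from 250 bases before to 50 after the RefSeq start (GRCm38.p6, chr19:29251553-29251852, plus strand), with the only match to the Tgif core TGTCA, read on the other strand as TGACA, in capitals.
Jak2: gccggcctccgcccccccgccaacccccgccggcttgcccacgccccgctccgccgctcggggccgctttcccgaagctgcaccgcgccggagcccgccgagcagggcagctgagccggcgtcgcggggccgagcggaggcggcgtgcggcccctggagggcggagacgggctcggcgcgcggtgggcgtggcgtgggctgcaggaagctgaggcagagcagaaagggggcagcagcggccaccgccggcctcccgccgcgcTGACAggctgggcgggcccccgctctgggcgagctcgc
The match lies 13 bases into the transcript. This 5-base motif, searched on both strands, was in 45.4% of 32851 promoters of the same length, and in 2 of the 10 promoters of the 8 genes (the other is a second Lifr promoter).

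Jak1 was higher on Tgif2 OE than on BirA control at all 3 probe sets, with no overlap at any. Jak1 1433805_at, the brightest, had 9.02, 9.15, 8.61 and 8.82 on Tgif2 OE and 8.55, 8.36, 8.16 and 8.16 on BirA control (0.59 ± 0.12, 1.51-fold, adjusted p = 0.00206). Jak1 1433803_at rose by 0.47 ± 0.09 (9.15e-04) and 1433804_at by 0.72 ± 0.11 (1.86e-04). Relative to the median of all probe sets the 3 changes were 0.48, 0.36 and 0.61. No alternative run on this comparison ended these 3 calls, the array pairs included: within replicates 1 and 2 the differences were 0.63, 0.47 and 0.82, and within replicates 3 and 4 0.55, 0.47 and 0.62.

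The arrays labelled Tgif1 OE had 6.67, 6.64, 6.68 and 6.64 for Jak1 1433804_at, against 6.41, 6.12, 6.15 and 6.13 on BirA control, again without overlap (0.46 ± 0.11, adjusted p = 0.00735), a call lost with array pairs averaged (0.0931). Jak1 1433805_at and 1433803_at overlapped there, with changes of 0.19 ± 0.12 (0.351) and 0.25 ± 0.09 (0.0627), and 1433803_at passed with the replicate block (0.0168). Between Tgif1 OE and Tgif2 OE, Jak1 1433805_at was called lower (-0.40 ± 0.12, 0.0326, and -0.30 relative to the median). That call was lost in 8 of 19 alternatives, quantile normalization (-0.28, 0.148) among them. Jak1 1433803_at passed between these groups with the replicate block (-0.22, 0.0267, and -0.11 relative to the median). On Tgif1 KD against shControl the 3 probe sets had no overlap but did not pass, with 0.48 ± 0.17 (0.0605), 0.32 ± 0.12 (0.0764) and 0.26 ± 0.15 (0.254) for 1433805_at, 1433803_at and 1433804_at. shControl exceeded BirA control at all 3, by 0.34 to 0.65.

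**Figure D2:**
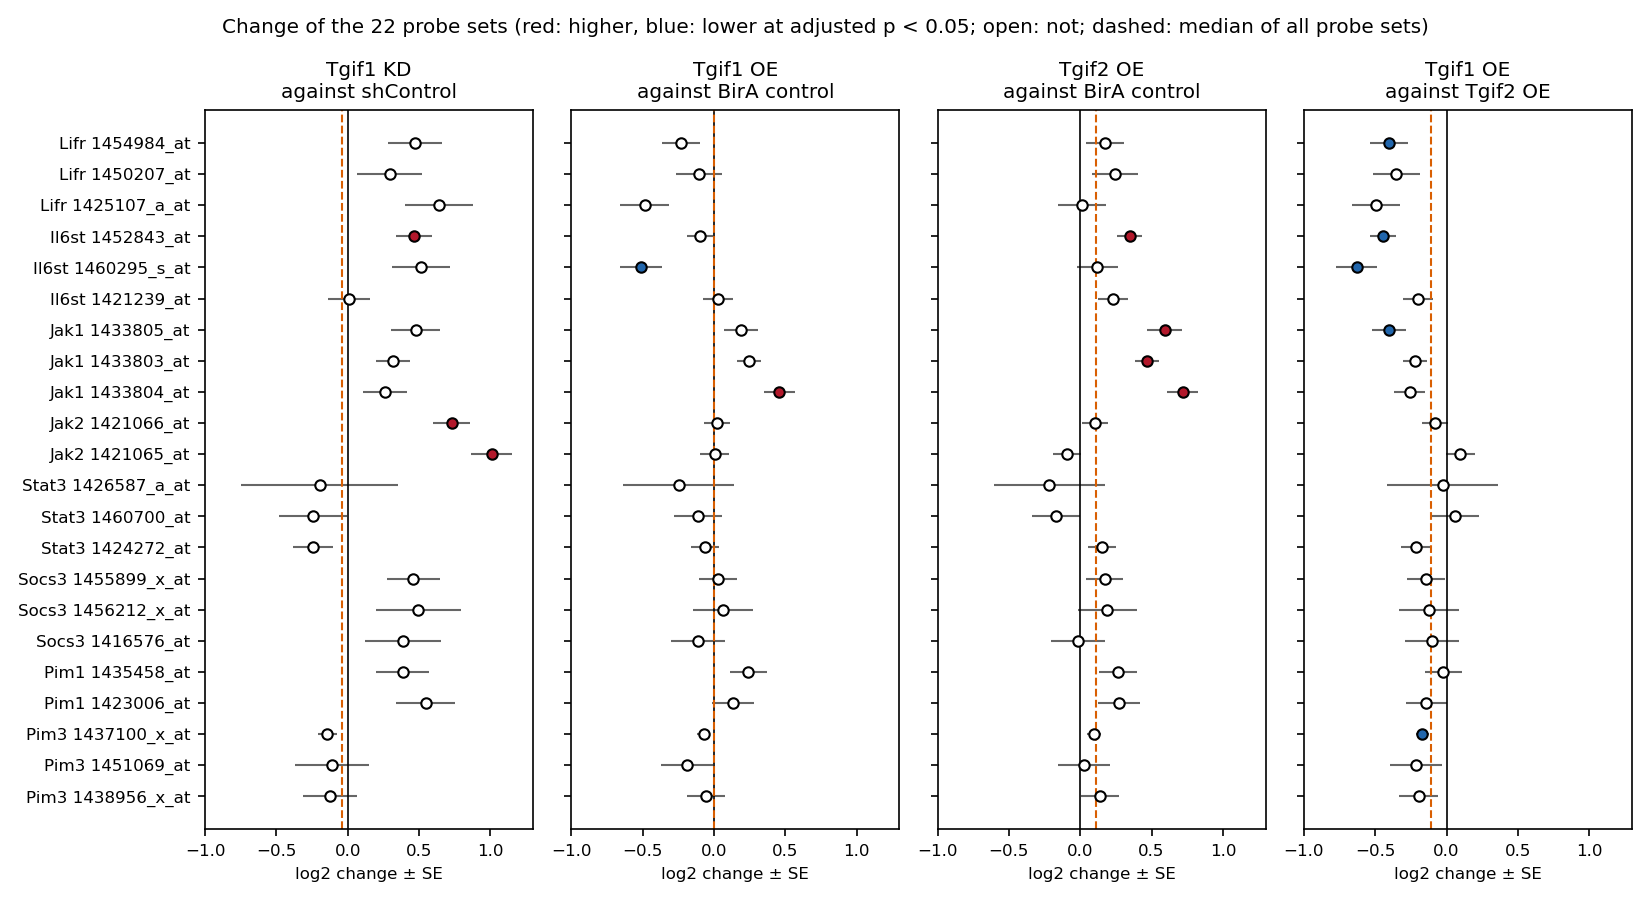
Log2 change (horizontal axis, with its standard error) of each of the 22 probe sets in the 4 comparisons; red points were called higher and blue points lower, open points were not called, and the dashed line is the median change of all probe sets. In Tgif1 KD against shControl most pathway points lie right of the dashed line but 3 are filled, and in Tgif2 OE against BirA control the 3 Jak1 probe sets lie furthest right.

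Stat3 itself was not called in any of the 4 comparisons by limma (at an unadjusted p under 0.05, 1 probe set in 1 comparison, 1424272_at on Tgif1 OE against Tgif2 OE). Its brightest probe set, 1426587_a_at, had 8.92 and 8.97 on Tgif1 KD arrays and 9.16 and 9.13 on shControl arrays. These do not overlap, but the fitted error was wide (-0.20 ± 0.55, adjusted p = 0.848); the fit pools the spread of all 5 groups, the overexpression arm included. There, 1426587_a_at had 9.40, 9.50, 8.18 and 8.34 on Tgif1 OE, 9.53, 9.65, 8.03 and 8.31 on Tgif2 OE, and 9.62, 9.49, 8.81 and 8.48 on BirA control. Replicates 3 and 4 minus replicates 1 and 2 gave -1.19, -1.42 and -0.91 in these groups, larger in size than the differences between group means (-0.25 ± 0.39 for Tgif1 OE and -0.22 ± 0.39, or -0.33 relative to the median, for Tgif2 OE, each against BirA control). Within the pairs the values differed: on Tgif2 OE against BirA control 1426587_a_at gave 0.04 on replicates 1 and 2 alone (adjusted p = 0.741) and was called lower on replicates 3 and 4 alone (-0.47, 0.0215). A second probe set, 1460700_at, showed the same split with differences of -0.54, -0.63 and -0.26, and correlated with the first at r = 0.89 over 16 arrays. On replicates 3 and 4 alone it was called lower on Tgif1 OE (-0.25, 0.0236) and on Tgif2 OE (-0.36, 0.00355) against BirA control, and on replicates 1 and 2 alone it gave 0.03 (0.813) and 0.01 (0.902).

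The third, 1424272_at, at percentile 32.4 of all probe sets by mean signal, correlated with 1426587_a_at at r = 0.09 and was called higher on Tgif2 OE on replicates 1 and 2 alone (0.36, 0.0188, against -0.05 and 0.772 on replicates 3 and 4). Over the 16 arrays the genes whose values followed Stat3 1426587_a_at most closely were Gatad2b (r = 0.99), Tbrg4 (0.98) and Sf3b3 (0.96), a description over arrays that share the pair split. The 5′ minus 3′ signal of the Gapdh control probe sets, a measure of RNA or labelling quality, also moved with the pairs: it was -0.24 and -0.34 on Tgif1 OE replicates 1 and 2 and -0.02 and -0.08 on replicates 3 and 4, and -0.17, -0.19, -0.04 and -0.06 on Tgif2 OE replicates 1 to 4. BirA control had -0.11, -0.13, -0.05 and -0.04. Its part in the Stat3 values was not tested.

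**Figure D3:**
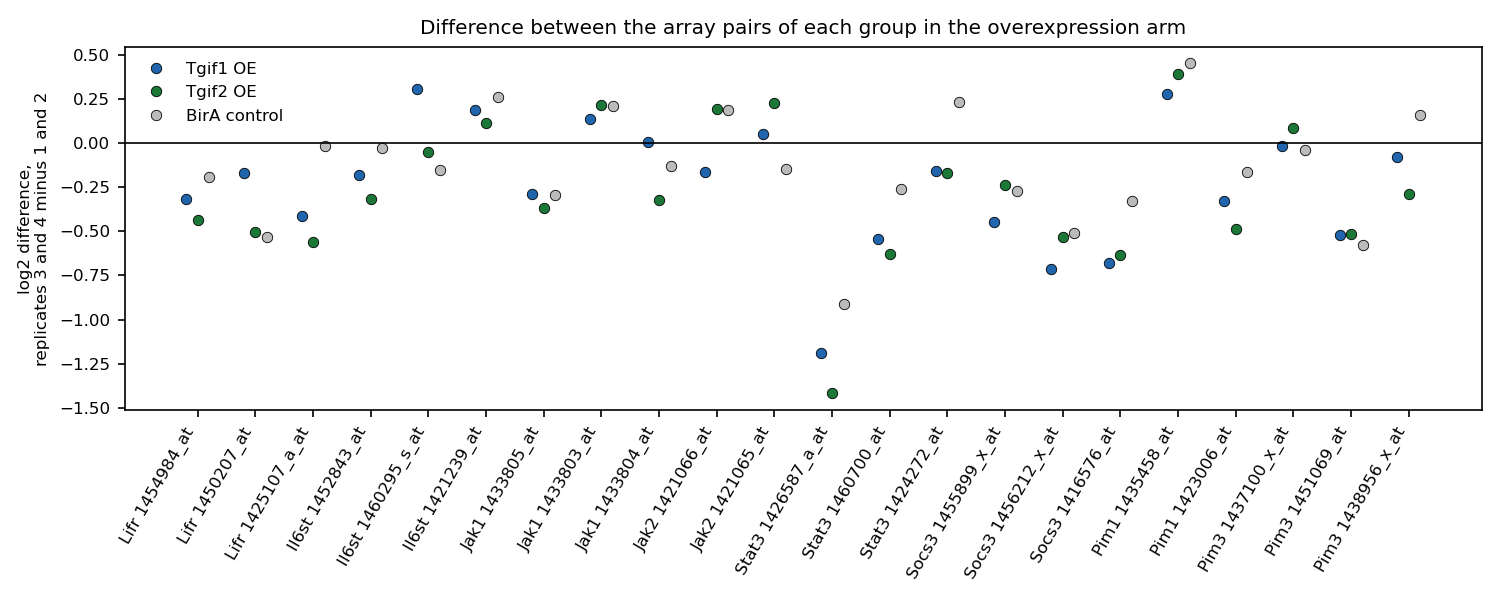
Mean of replicates 3 and 4 minus mean of replicates 1 and 2 (log2, vertical axis) for each of the 22 probe sets, with 1 point for each overexpression-arm group. Stat3 1426587_a_at has the lowest points (-1.42 to -0.91), the 3 Socs3 probe sets lie below 0 in every group, and Pim1 1435458_at lies above 0 while Pim1 1423006_at lies below.

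Socs3, the feedback inhibitor, was not called in any of the 4 comparisons by limma (at an unadjusted p under 0.05, 1 probe set on Tgif1 KD, 1455899_x_at). Its brightest probe set, 1455899_x_at, had 11.80 and 11.94 on Tgif1 KD arrays and 11.46 and 11.36 on shControl arrays (0.46 ± 0.19, adjusted p = 0.0938), and 1456212_x_at and 1416576_at gave 0.50 ± 0.30 (0.271) and 0.39 ± 0.27 (0.345). None of the 3 overlapped between these groups. The x in the names of 2 of them marks probes that may also detect other transcripts, but the 3 correlated at r = 0.85 to 0.96. On replicates 1 to 4, 1455899_x_at had 11.45, 11.53, 11.05 and 11.04 on Tgif1 OE, 11.59, 11.47, 11.40 and 11.19 on Tgif2 OE, and 11.32, 11.43, 10.92 and 11.30 on BirA control. The changes were 0.03 ± 0.13 (0.932) and 0.17 ± 0.13 (0.348, and 0.06 relative to the median) against BirA control. Socs3 1416576_at was called lower on Tgif1 OE on replicates 3 and 4 alone (-0.29, 0.00761), and gave 0.06 (0.626) on replicates 1 and 2 alone.

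The Socs3 promoter is shown because it was the only 1 of the 10 promoters of these genes with the Stat motif TTCNNNGAA, in capitals, in the 250 bases before to 50 after a RefSeq start (GRCm38.p6, chr11:117969317-117969616, minus strand).
Socs3: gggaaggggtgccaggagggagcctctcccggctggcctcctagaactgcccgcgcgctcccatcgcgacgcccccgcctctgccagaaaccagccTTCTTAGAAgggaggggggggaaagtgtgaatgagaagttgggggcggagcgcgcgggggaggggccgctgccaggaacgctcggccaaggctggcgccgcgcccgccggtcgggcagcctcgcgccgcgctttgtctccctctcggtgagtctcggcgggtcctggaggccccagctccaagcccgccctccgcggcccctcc
The match begins at position -154 relative to the start. The motif was in 8.30% of the 32851 promoters of the same length, and the stricter TTCCNGGAA, in none of the 10, was in 1.15%. A match is a description of these letters, and both motifs read alike on either strand. The search covered only these windows. The annotated Socs3 gene extends to chr11:117970336 and the Lifr gene begins at chr15:7090610, outside them.

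The Pim kinases differed from each other. Pim1 1435458_at had 10.14 and 10.13 on Tgif1 KD arrays and 9.73 and 9.76 on shControl arrays (0.39 ± 0.19, adjusted p = 0.166), and 1423006_at had 8.10 and 8.57 against 7.69 and 7.89 (0.55 ± 0.21, 0.073). Both lay above shControl without overlap and neither passed. On Tgif1 OE, Pim1 1435458_at had 9.38, 9.27, 9.63 and 9.58, on Tgif2 OE 9.24, 9.35, 9.61 and 9.75, and on BirA control 8.98, 9.02, 9.43 and 9.48. The groups overlapped only across the array pairs: within each pair both labelled groups exceeded BirA control. With the replicate block the changes of 0.24 on Tgif1 OE and 0.26 on Tgif2 OE passed (adjusted p = 0.0115 and 0.00503; 0.254 and 0.145 without it), and relative to the median of all probe sets the change on Tgif2 OE was 0.16. With array pairs averaged neither passed (0.579 and 0.371). Pim1 1423006_at passed with the block on Tgif2 OE (0.27, 0.0264, and 0.16 relative to the median) and did not with pairs averaged (0.431).

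The 2 Pim1 probe sets lay in opposite directions between the array pairs, with differences of 0.28, 0.39 and 0.45 for 1435458_at (Tgif1 OE, Tgif2 OE, BirA control) and -0.33, -0.49 and -0.16 for 1423006_at. Pim3 1437100_x_at lay at percentile 95.9 of all probe sets by mean signal, with 11.74 and 11.73 on Tgif1 KD arrays and 11.85 and 11.91 on shControl arrays (-0.14 ± 0.07, adjusted p = 0.142). It had 11.89, 11.90, 11.90 and 11.86 on Tgif1 OE, below the 11.99, 12.04, 12.08 and 12.12 on Tgif2 OE (-0.17 ± 0.05, 0.0222). But that was -0.06 relative to the median of all probe sets and -0.01 after quantile normalization (0.934). This call was lost in 7 of 19 alternatives. Pim3 1451069_at and 1438956_x_at had -0.11 ± 0.26 and -0.12 ± 0.19 on Tgif1 KD against shControl. With the block, 1451069_at passed on Tgif1 OE against BirA control (-0.19, 0.042) and against Tgif2 OE (-0.21, 0.0246, and -0.11 relative to the median).

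The Tgif1 KD groups did not overlap at 20 of the 22 probe sets, against 67.0% of all probe sets, which 2 arrays against 2 often give. The median pathway change was 0.39, against -0.04 over all probe sets, and 16 of the 22 changes were above 0, the exceptions being the 3 probe sets each of Stat3 and Pim3. The count called depended on the error used. Fitted on the 4 knockdown-arm arrays alone, 11 were called higher and 1 lower, and 29.7% of all probe sets were called. The 11 were both probe sets of Jak2, all 3 of Socs3, 2 each of Lifr and Il6st and 1 each of Jak1 and Pim1, and the 1 lower was Stat3 1424272_at (-0.24, adjusted p = 0.0478). The median SD of the pathway probe sets was 0.09 on Tgif1 KD and 0.06 on shControl, and 0.18, 0.24 and 0.18 on Tgif1 OE, Tgif2 OE and BirA control. The 5′ minus 3′ signal of Gapdh was -0.10 and -0.08 on Tgif1 KD and -0.21 and -0.22 on shControl, and its part in these changes was not tested. In the overexpression arm, non-overlapping groups were found at 2 probe sets for Tgif1 OE against BirA control (20.8% of all), 4 for Tgif2 OE against BirA control (29.9%) and 3 for Tgif1 OE against Tgif2 OE (23.7%).

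Ordered by the group means of their brightest probe sets, the genes did not share 1 order. These orders cross the arms, whose controls differed. shControl lay above BirA control without overlap for Jak1 (by 0.52), Jak2 (0.82) and Pim1 (0.52). It lay below BirA control without overlap for Lifr (-0.44) and Pim3 (-0.08), and the controls overlapped for Il6st, Stat3 and Socs3. Tgif1 KD was highest for Il6st (9.51), Jak1 (9.30), Jak2, Socs3 (11.87) and Pim1 (10.13), and lowest for Pim3 (11.74, against 11.88 on shControl). Stat3 averaged 8.95 on Tgif1 KD and 9.14 on shControl, and 8.85 on Tgif1 OE, 8.88 on Tgif2 OE and 9.10 on BirA control, all within the spread of the overexpression-arm arrays. Lifr averaged 10.03 on Tgif1 KD and 9.56 on shControl, and 9.76 on Tgif1 OE, 10.17 on Tgif2 OE and 9.99 on BirA control. In order of level, Lifr was highest on Tgif2 OE, then Tgif1 KD, BirA control, Tgif1 OE and shControl, and each group's range overlapped the next. Il6st on Tgif2 OE (9.48) was next to Tgif1 KD and overlapped it, while Tgif1 OE, BirA control and shControl lay between 9.04 and 9.13. Over the 16 arrays the genes whose values followed Lifr 1454984_at most closely were Cdca4 (r = 0.87), Pprc1 (0.86) and Akirin2 (0.86), given as a description. For Socs3 1455899_x_at they were Cd6 (0.94), Agmat (0.94) and Rb1cc1 (0.92), and for Pim1 1435458_at Tmem147 (0.98), Xpr1 (0.98) and Poglut2 (0.96).

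The effects of Tgif1 KD and of the arrays labelled Tgif1 OE were set against each other directly. Their difference was called above 0 at 6 of the 22 probe sets and below 0 at 0 by limma (6 and 0 unadjusted), where 24.6% of all probe sets were called, 12.4% above and 12.2% below. Beside Jak2 these were Il6st 1452843_at (0.56 ± 0.15, adjusted p = 0.0143), Il6st 1460295_s_at (1.03 ± 0.25, 0.00722), Lifr 1425107_a_at (1.13 ± 0.29, 0.0105) and Lifr 1454984_at (0.70 ± 0.23, 0.0368). The Lifr and Il6st differences combine a change above 0 on Tgif1 KD with one below 0 on Tgif1 OE, and most of those single changes did not pass. Lifr 1454984_at lost the call in 10 of 23 alternatives, Il6st 1452843_at in 3 of 23 and Lifr 1425107_a_at in 2 of 22. For each, these include the fits without Tgif1 KD replicate 2 or shControl replicate 2, which leave 1 array in a group. Without Tgif1 KD replicate 2 the differences were 0.59, 0.50 and 1.04 in that order. Il6st 1460295_s_at and both Jak2 probe sets kept the call in every alternative that held them.

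The other pathway genes were taken from 5 lists with 57 genes, of which 53 were analysed here, each by its brightest probe set. Among 18 Stat3 targets, 3 were higher and 3 lower on Tgif1 KD than on shControl, 3 and 3 on Tgif1 OE than on BirA control, and 3 and 3 on Tgif2 OE than on BirA control. The list's median changes were 0.14, -0.03 and 0.07 (-0.04, 0.00 and 0.11 over all probe sets). As many were called higher as lower in each comparison. At an unadjusted p under 0.05, 7 were higher and 6 lower on Tgif1 KD, 5 and 4 on Tgif1 OE, and 6 and 3 on Tgif2 OE. Over all probe sets the shares called higher and lower were uneven on Tgif2 OE (24.9% and 6.18%). They were 11.2% and 11.1% on Tgif1 KD and 8.74% and 9.09% on Tgif1 OE. On Tgif1 KD, Pramel7, an ES cell gene that can sustain self-renewal, had 6.44 and 6.24 against 3.62 and 3.38 on shControl (2.84 ± 0.13, adjusted p = 3.06e-09), though its other probe set gave 0.42. Fos, an immediate early transcription factor, had 9.21 and 9.31 against 7.36 and 7.30 (1.93 ± 0.23, 3.10e-05). Myc, which promotes growth, had 8.31 and 8.18 against 9.26 and 9.37 (-1.07 ± 0.11, 5.90e-06).

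On Tgif1 OE the largest called target change was that of Pim2, the third Pim kinase, with 10.85, 10.89, 10.39 and 10.41 against 9.03, 8.92, 8.86 and 8.68 on BirA control (1.77 ± 0.12, 4.70e-07). On Tgif2 OE it had 9.97, 10.10, 10.18 and 10.31 (1.27 ± 0.12, 4.68e-06). Both labelled groups lay above every control array. Tfcp2l1, a transcription factor that acts downstream of LIF in ES cell self-renewal, had 10.20, 10.04, 9.87 and 9.83 on Tgif1 OE and 10.52, 10.55, 10.40 and 10.36 on Tgif2 OE, against 10.74, 10.85, 11.13 and 11.17 on BirA control. It fell in both (-0.99 ± 0.10, adjusted p = 1.23e-05, and -0.52 ± 0.10, 0.00138), and its 2 dim probe sets gave -0.09 and -0.27 on Tgif1 OE. Gadd45g, a growth arrest gene, rose by 1.01 ± 0.17 (8.80e-04) on Tgif1 OE and 1.07 ± 0.17 (3.39e-04) on Tgif2 OE.

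Klf4 and Klf5, Krüppel-like factors that follow LIF in ES cells, did not pass in any comparison without the block: on Tgif1 OE against BirA control Klf4 gave -0.39 ± 0.16 (adjusted p = 0.119, 0.00798 with the block) and Klf5 -0.41 ± 0.28 (0.383, 0.0019 with the block). On Tgif2 OE Klf4 gave -0.10 ± 0.16 (0.681) and Klf5 -0.22 ± 0.28 (0.583, 0.034 with the block). On Tgif1 KD against shControl the 3 factors Klf4, Klf5 and Tfcp2l1 gave 0.09 ± 0.23 (0.837), 0.58 ± 0.40 (0.347) and 0.33 ± 0.14 (0.118). Klf5 had 12.26 and 12.31 on Tgif1 KD arrays and 11.74 and 11.68 on shControl arrays, which do not overlap. Its fitted error pools the spread of all 5 groups, and Klf5 had 10.77, 10.98, 9.87 and 9.89 on Tgif1 OE.

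**Figure D4:**
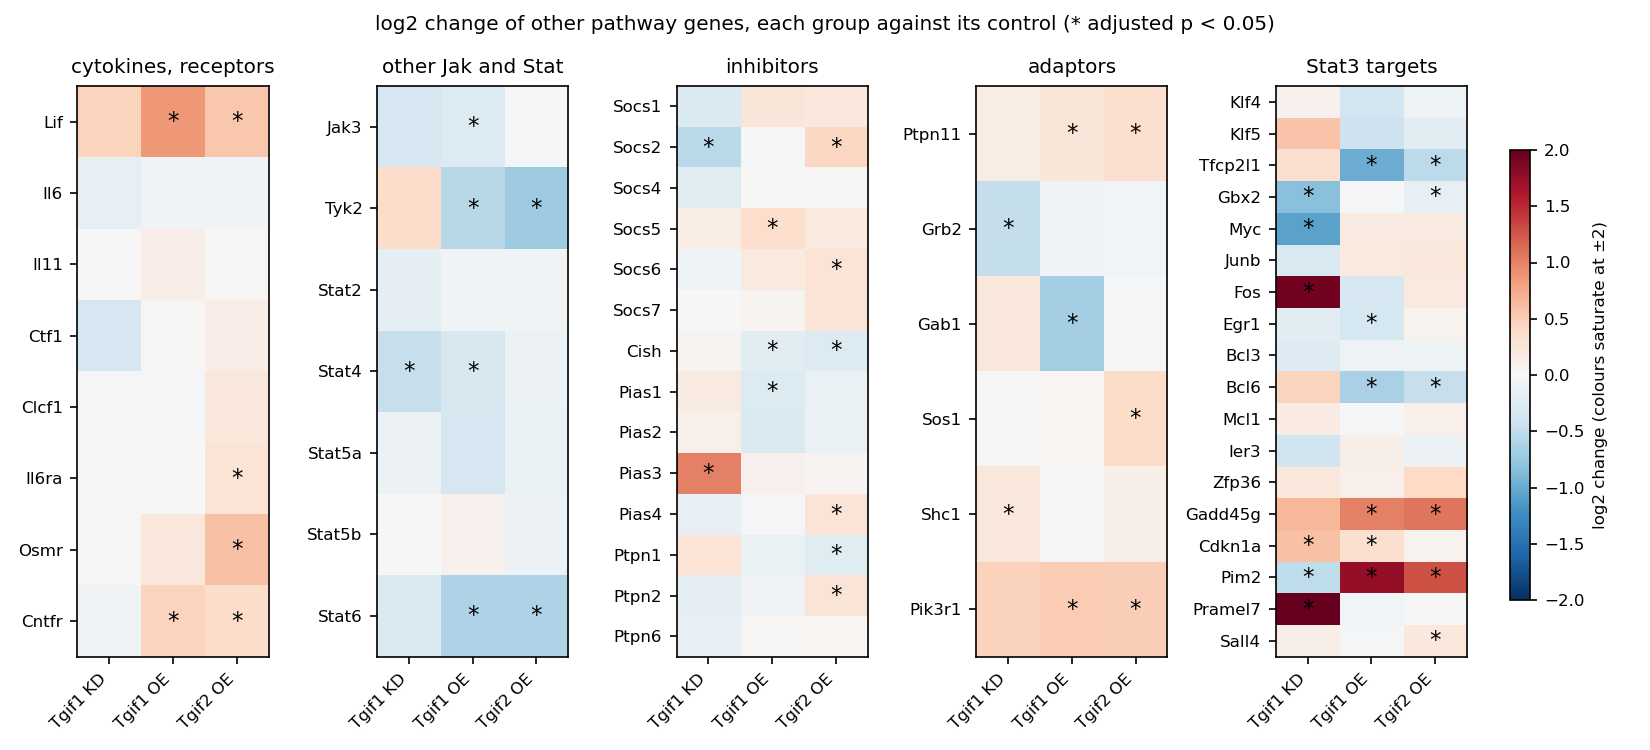
Log2 change (colour) of the 53 other pathway genes in 5 lists, for Tgif1 KD against shControl, Tgif1 OE against BirA control and Tgif2 OE against BirA control; a star marks an adjusted p under 0.05. Most lists hold red and blue cells, the other Jak and Stat genes are mostly blue, and Pramel7 and Fos are high on Tgif1 KD and Pim2 on Tgif1 OE and Tgif2 OE.

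Among 8 family cytokines and receptors, 0 were called on Tgif1 KD by limma (1 higher and 1 lower at an unadjusted p under 0.05). Called higher were 2 on Tgif1 OE and 4 on Tgif2 OE, with 0 lower in either (0 unadjusted). Of all probe sets, 8.74% were called higher and 9.09% lower on Tgif1 OE, and 24.9% and 6.18% on Tgif2 OE. Lif, the ligand itself, had 5.75, 5.70, 6.06 and 5.82 on Tgif1 OE and 5.53, 5.25, 5.76 and 5.48 on Tgif2 OE, against 5.22, 4.89, 4.57 and 5.20 on BirA control (0.86 ± 0.14, adjusted p = 4.62e-04, and 0.53 ± 0.14, 0.00849). These are dim signals and its other probe set gave 0.04 and -0.03. Lif was not called on Tgif2 OE by replicates 1 and 2 alone (0.33, 0.0684). Osmr, the oncostatin M receptor, was higher on Tgif2 OE by 0.58 ± 0.12 (0.00238), a call lost on replicates 3 and 4 alone (0.45, 0.102). Quantile normalization left 2 of the 4 on Tgif2 OE.

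Among 7 other Jak and Stat genes, 1 was lower on Tgif1 KD (Stat4), 4 on Tgif1 OE and 2 on Tgif2 OE, with 0 higher in each by limma. At an unadjusted p under 0.05, 1 was higher on Tgif1 KD and 0 on the others. Of all probe sets, 11.1% were called lower on Tgif1 KD, 9.09% on Tgif1 OE and 6.18% on Tgif2 OE. The kinase Tyk2 had 7.35, 7.29, 7.06 and 7.11 on Tgif1 OE and 7.12, 7.13, 6.98 and 6.88 on Tgif2 OE, against 7.89, 7.94, 7.54 and 7.66 on BirA control (-0.55 ± 0.10, adjusted p = 9.44e-04, and -0.73 ± 0.10, 6.74e-05). Stat6, the factor downstream of interleukin 4, fell by 0.62 and 0.61 (7.13e-04 and 5.32e-04). Jak1, of the same kinase family as Tyk2, rose on Tgif2 OE at its 3 probe sets.

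Among 14 inhibitors, 1 was higher and 1 lower on Tgif1 KD and 1 and 2 on Tgif1 OE. On Tgif2 OE 4 were higher and 2 lower, and quantile normalization left 1 and 2. Of all probe sets, 11.2% were called higher and 11.1% lower on Tgif1 KD, and 8.74% and 9.09% on Tgif1 OE. On Tgif2 OE the shares were 24.9% and 6.18%. Pias3, which binds active Stat3, had 8.12 and 8.06 on Tgif1 KD and 6.98 and 7.18 on shControl (1.00 ± 0.19, adjusted p = 0.00134), with 0.26 at its other probe set. Socs2 was lower on Tgif1 KD (-0.54 ± 0.09, 4.46e-04) and higher on Tgif2 OE (0.42 ± 0.06, 2.10e-04). Among 6 adaptors to Erk and PI3 kinase, 1 was higher and 1 lower on Tgif1 KD, 2 and 1 on Tgif1 OE, and 3 and 0 on Tgif2 OE (4 and 0 unadjusted), 1 and 0 of them after quantile normalization. Gab1, a docking protein, had the largest of these, with -0.68 ± 0.20 on Tgif1 OE (0.0258), a call lost without Tgif1 OE replicate 1 (0.0802) or replicate 2 (0.0787).

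Markers of other cells moved with the overexpression-arm groups. Against BirA control, 6 of 14 measured fibroblast markers rose and 1 fell on Tgif1 OE, and 7 rose and 0 fell on Tgif2 OE. After quantile normalization these counts were 5 and 0, and 3 and 0. Of all probe sets, 8.74% were called higher and 9.09% lower on Tgif1 OE, and 24.9% and 6.18% on Tgif2 OE. The largest rises were those of Tagln (3.48 and 2.57) and Acta2. Vim, the brightest marker, had 9.72 to 10.24 on Tgif1 OE and 10.67 to 10.84 on Tgif2 OE, against 10.20 to 10.45 on BirA control. On Tgif1 KD, 2 of the markers were higher and 1 lower than on shControl. In that comparison 11.2% of all probe sets were called higher and 11.1% lower. The mean log2 signal of the 14 ranged from 5.59 to 6.02 on Tgif1 OE, 5.49 to 5.97 on Tgif2 OE and 5.08 to 5.31 on BirA control. It ranged from 5.28 to 5.31 on Tgif1 KD and 5.37 to 5.44 on shControl. The mean of 7 blood cell markers stayed between 4.41 and 4.70 on all arrays, but single markers moved. Against BirA control, 1 was called higher and 1 lower on Tgif1 OE, and 2 higher and 1 lower on Tgif2 OE. These counts were the same after quantile normalization. Whether these markers came from fibroblasts or blood cells was not tested, nor was their part in the Jak1, Il6st and target values.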

How the data were processed

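The authors deposited RMA-normalized log2 intensities per probe set, per the submitters' processing notes, which also name limma for the Tgif2 OE arrays, with versions not given in the sources used here. Values ran from 2.19 to 14.79. Of 22690 probe sets, 64 controls were left out and 22626 tested, and 20380 carried 1 gene symbol in the platform annotation. From these values limma 3.58.1 in R 4.3.3 fitted 1 mean per group to 16 arrays (11 residual degrees of freedom), with Benjamini-Hochberg adjustment over all tested probe sets and a threshold of 0.05, and no filter on dim probe sets. The script was tested on simulated data.

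The 8 genes and all lists were chosen with earlier results of these data known. Named genes were the 8 members, Tgif1 and Tgif2, Klf4, Klf5 and Tfcp2l1, and up to 3 called genes of each list with the largest change. The marker genes named were chosen after their values were seen. Promoters are RefSeq, GRCm38.p6. All 8 genes matched.

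Arrays that share a replicate number deviated together in the overexpression arm (r = 0.30 to 0.55 over 12 comparisons), so blocked values are given there. However, an array's own number was its best match in 0 of 12. The best match was always the other number of the array pair (1 with 2, 3 with 4). This r therefore does not set the replicate number apart from the pair split. In the knockdown arm r was 0.01. Alternatives were other scalings, 1 probe set per gene, a filter on dim probe sets, another variance model, the compared groups alone, blocks and arrays left out.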

Additional observations from a re-analysis of the deposited data

Results flagged for a closer look

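Jak1 1433804_at had 1 array far from the others of its group. BirA control replicate 1 was at 6.41 log2, the next array at 6.15 and the lowest at 6.12, a gap of 0.90 of the group's range, above Dixon's 95% critical value for 4 samples. Of the 66 groups of 4 examined, 1 showed such a gap, and chance gives about 1 in 20. All 4 arrays of Tgif1 OE still lay above it, the lowest at 6.64.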

How the results depend on the processing

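No change of a pathway probe set that was called reversed its sign under any alternative. Where the cause of a shift is not shown by the alternative itself, the cause was not tested. The number of arrays limits all counts.

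For the 22 pathway probe sets, Tgif1 KD against shControl had 3 calls, and 5 with a trended and robust variance, 12 in a fit of the compared groups alone, 12 with the replicate block and 8 with array pairs as random blocks, and 2 to 4 with 1 array left out. The knockdown-arm numbers do not pair the arrays. Tgif1 OE against BirA control had 2 calls, and 0 with 1 probe set per gene, 4 without the dimmest 33.3% of probe sets, 1 in the compared groups alone, 6 with the replicate block, 5 with array pairs as random blocks, 4 on replicates 1 and 2 alone and 4 on replicates 3 and 4 alone, 0 with array pairs averaged, and 2 to 3 with 1 array left out. Tgif2 OE against BirA control had 4, and 2 with 1 probe set per gene, 7 with the replicate block and 4 to 5 with 1 array left out. Tgif1 OE against Tgif2 OE had 5, and 2 after quantile normalization, 2 with column medians subtracted, 2 in the compared groups alone, 9 with the replicate block, 9 with array pairs as random blocks, 0 with array pairs averaged, and 2 to 6 with 1 array left out (2 without Tgif1 OE replicate 4, 3 without Tgif1 OE replicate 3, Tgif2 OE replicate 1 or Tgif2 OE replicate 2). The change on Tgif1 KD minus that on Tgif1 OE had 6, and 3 with 1 probe set per gene, 10 on replicates 1 and 2 alone, and 3 to 6 with 1 array left out (3 without Tgif1 KD replicate 2 or shControl replicate 2).

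Over all probe sets, calls numbered 5042 on Tgif1 KD against shControl, and 3146 with 1 probe set per gene and 3152 to 3418 with 1 array left out. They numbered 4035 on Tgif1 OE against BirA control, and 2587 with 1 probe set per gene and 1077 with array pairs averaged. They numbered 7035 on Tgif2 OE against BirA control (80.13% higher, and 48.77% higher after quantile normalization), 4388 with 1 probe set per gene and 2289 with array pairs averaged. They numbered 4216 on Tgif1 OE against Tgif2 OE (10.34% higher), 1941 after quantile normalization (50.95% higher), 1777 with column medians subtracted, 2439 with 1 probe set per gene, 6376 with the replicate block, 6980 with array pairs as random blocks and 166 with array pairs averaged. The difference of effects had 5560, and 3418 with 1 probe set per gene. Testing 1 probe set per gene tests fewer features. In the overexpression arm the block changed no pathway call other than those given beside the results, and in the difference of effects it added Socs3 1416576_at (0.50, adjusted p = 0.0116). On Tgif1 KD it added 9 calls, all 3 probe sets of Socs3 and 2 each of Lifr, Jak1 and Pim1 (adjusted p = 0.00222 to 0.0278), where 6935 of all probe sets were called.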
